A study of Homo sapiens with 12 samples.

Results

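The genes that carry glucose into the cell, break it down to pyruvate, pass pyruvate to lactate or admit it to the mitochondrion were examined in human cells treated with pentamidine. The 31 members were taken by gene symbol from a list of the pathway, out of 32077 genes in the count table, and all 31 were found there. The rule names genes and not values, but the list was chosen with earlier results of these data known. They fell into 6 roles: 4 genes of glucose entry, 7 of upper glycolysis, 4 that set the level of the bisphosphate activator of phosphofructokinase, 6 of lower glycolysis, 4 of lactate handling, and 6 of pyruvate dehydrogenase and its kinases.

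Glycolysis splits a glucose molecule into pyruvate in the cytosol and yields ATP without oxygen. Pyruvate is then either reduced to lactate, which leaves the cell through monocarboxylate transporters, or enters the mitochondrion, where pyruvate dehydrogenase turns it into acetyl-CoA unless a pyruvate dehydrogenase kinase switches the enzyme off. Many tumour cells are known to run glycolysis at a high rate even when oxygen is present, and cells whose respiratory chain is impaired depend on it for ATP.

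The series held 12 libraries of mRNA from 2 cell lines named PC3 and DU145, both established from metastases of androgen-independent human prostate cancer, with 3 libraries in each of 4 groups. Wild-type cells of each line received vehicle or 2.5 μM pentamidine, an antiprotozoal diamidine that binds DNA, for 48 hours, and no other agent or genetic change was named for any group. Each line stands for a single established tumour line. The labels do not say that the 3 libraries of a group came from separate cultures, so the p-values measure the spread between these libraries, which may be technical.

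Totals ranged from 13514195 to 15131436 counts per library. The 31 members took 1.89% ± 0.051 (SD, n = 3) of the counts in PC3 cells under vehicle and 1.79% ± 0.032 after pentamidine, and 1.72% ± 0.019 and 1.61% ± 0.025 in DU145 cells. Over the same comparison the mRNAs encoded by mitochondrial DNA went from 3.42% to 0.248% of counts in PC3 and from 3.93% to 0.209% in DU145 cells. In RNA from whole cultures, fewer cells of a type and less RNA per cell cannot be told apart.

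The labelled cells were first checked against markers. Of 5 epithelial markers, the adhesion proteins EPCAM and CDH1 and the keratin KRT19 stayed below 1 CPM (counts scaled to library size, here by TMM) in all 12 libraries, whereas KRT18 ranged from 144 to 941 CPM. KRT8 lay between 16.1 and 21.4 CPM in the libraries labelled PC3 and between 1817 and 2795 CPM in those labelled DU145. CTNNA1, an adhesion gene known to be deleted in PC3, was counted at 431 to 577 CPM in the libraries labelled PC3, and was chosen after its values were seen. The defining markers of fibroblasts, leukocytes and endothelial cells together stayed at or below 3.21, 0.648 and 1.15 CPM in any library. The names PC3 and DU145 below are therefore those of the labels, and which cells the libraries came from was not tested.

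In PC3 cells, 3 of the 4 glucose entry genes were higher after pentamidine, and more of the pathway was lower than higher. Of 30 members tested, 5 were higher (the glucose transporter genes SLC2A1 and SLC2A3, HK2, PFKFB2 and GAPDH) and 12 were lower, at an adjusted p below 0.05 in edgeR's quasi-likelihood test. Among all 13861 genes tested, 21.7% were higher and 21.7% lower, so the share of members that was higher, 16.7%, was near the background and the share that was lower, 40.0%, was above it. The median log2 fold change of the members was -0.12, against 0.0046 over all genes. Beyond a log2 fold change of 1, 1 member was called, SLC2A3, against 4.75% of all genes. The 3 pentamidine libraries did not overlap the 3 vehicle libraries for 21 members, 7 higher and 14 lower, against 52.1% of all genes, split into 26.1% of genes higher and 26.1% lower.

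In DU145 cells, too, more members were lower than higher. Of 28 members tested, 3 were higher (SLC2A1, PFKL and PDK2) and 15 were lower, with 17.2% of 14313 genes higher and 16.8% lower in the background. The shares of members were 10.7% higher and 53.6% lower. The median log2 fold change was -0.094 for the members and 0.0085 for all genes, and no member passed a log2 fold change of 1, against 2.03% of all genes. Groups did not overlap for 17 members, 3 higher and 14 lower, against 44% of all genes, split into 21.9% of genes higher and 22.1% lower. The split of calls in this line depended on the scaling: with library size alone in place of TMM, 4 members were higher and 10 lower (5 and 13 in PC3 cells), and of all genes 3282 were higher and 1645 lower in place of 2459 and 2401. With limma on log2(CPM + 1), on the deposited CPM without TMM, in place of edgeR, 6 members were lower and 3 higher (10 and 4 in PC3 cells). The 9 lower calls lost were those of GPI, ALDOA, TPI1, PFKFB4, ENO1, PKM, LDHB, SLC16A1 and PDHB (adjusted p = 0.0506 to 0.713).

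Of the 28 members tested in both lines, 9 were lower in both: HK1, GPI, TPI1, PFKFB3, PFKFB4, PGAM1, PKM, LDHA and SLC16A1. SLC2A1 alone was higher in both, 6 passed in PC3 and not in DU145 cells, 8 the reverse, and 4 (PFKM, TIGAR, SLC16A3 and PDHA1) passed in neither. None passed in opposite directions. Passing in 1 line and not in the other does not show a difference between lines, which was tested separately by the interaction term and is given with each gene.

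**Figure D1:**
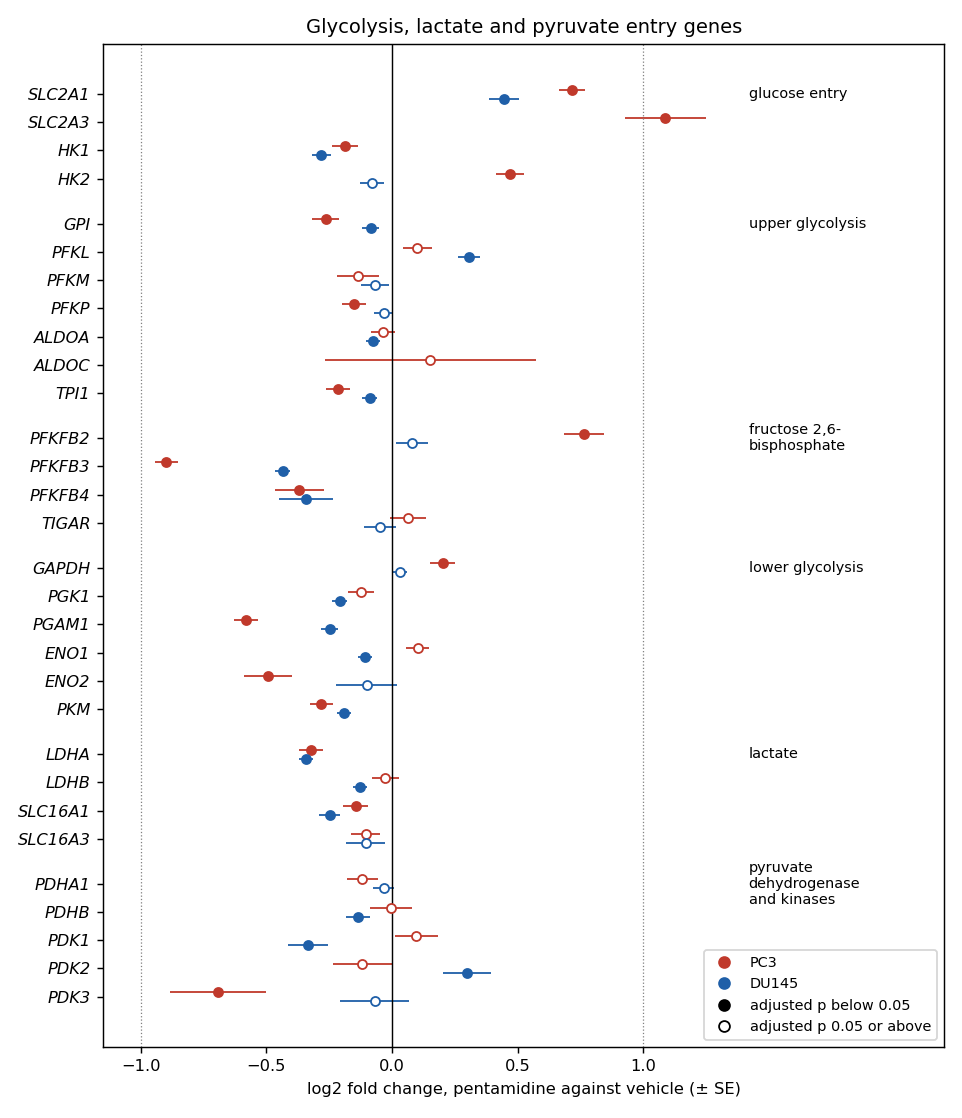
Log2 fold change of each tested member after pentamidine (horizontal axis, ± SE of the edgeR fit) in PC3 (red) and DU145 cells (blue), grouped by role, with filled points for an adjusted p below 0.05 and dotted lines at a log2 fold change of 1 in either direction. The glucose transporter genes stand to the right in both lines where tested and most members outside glucose entry to the left, with PFKFB3 in PC3 cells at -0.90 and SLC2A3 in PC3 cells at 1.09 as the ends of the range.

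Glucose entry was the role in which higher calls were most frequent in PC3 cells, with 3 of 4 members higher and 1 lower, and a median log2 fold change of 0.59. SLC2A1 (chr1:42925375-42959173, minus strand, GRCh38) encodes GLUT1, the basal glucose transporter of most cells. Its level was 76.2, 74.1 and 77.7 CPM in the vehicle libraries of PC3 and 124, 124 and 125 CPM in the pentamidine libraries. In DU145 cells the vehicle libraries held 36.8, 38.1 and 37.1 CPM and the pentamidine libraries 49.7, 53.2 and 49.2 CPM. Every treated library lay above every vehicle library of its line. The rise was 1.64-fold in PC3 (log2 fold change 0.72 ± 0.053 SE, adjusted p = 8.47e-09) and 1.36-fold in DU145 (0.45 ± 0.060, adjusted p = 3.18e-08), and the log2 response was larger in PC3 cells by 0.27 ± 0.074 (adjusted p = 0.00859, interaction term). The starting level also differed, being 2.00-fold higher in vehicle-treated PC3 than in vehicle-treated DU145 cells (adjusted p = 2.99e-10).

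SLC2A3 (chr12:7919230-7936275, minus strand) encodes GLUT3, a transporter of high affinity known from neurons and some tumours. It was low in PC3 cells, with 3.39, 4.99 and 4.06 CPM under vehicle and 8.92, 8.82 and 8.71 CPM after pentamidine. The treated libraries did not overlap the vehicle libraries, and the fold change was 2.13 (log2 1.09 ± 0.16, adjusted p = 3.65e-05). Without vehicle replicate 1 the log2 fold change was 0.95 (adjusted p = 3.03e-06), which is below the fold threshold. In DU145 cells the gene was at 0 to 2 counts in every library and was not tested. Against a limit of 3 counts per library, its level under vehicle was at least 18.5-fold higher in PC3 than in DU145 cells.

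The hexokinases, which trap glucose in the cell by phosphorylation, moved apart in PC3 cells. HK2 (chr2:74833981-74893359, plus strand), the inducible form of many tumours, was at 85.4, 84.2 and 85.0 CPM under vehicle and at 113, 113 and 125 CPM after pentamidine. In DU145 cells it was at 85.3, 77.7 and 84.2 CPM under vehicle and at 76.8, 76.3 and 80.1 CPM after pentamidine. The treated libraries were higher without overlap in PC3 cells, and those of DU145 cells overlapped. HK2 rose 1.39-fold in PC3 cells (log2 0.47 ± 0.057, adjusted p = 3.55e-06), had a log2 fold change of -0.08 ± 0.048 in DU145 (adjusted p = 0.207), and responded differently in the 2 lines by 0.55 ± 0.074 (adjusted p = 2.47e-06, interaction term), while its vehicle levels differed by 0.02 ± 0.055 on the log2 scale (adjusted p = 0.799). HK1, the constitutive form, fell in both lines, by 0.19 on the log2 scale in PC3 (adjusted p = 0.00672) and by 0.28 in DU145 (adjusted p = 2.68e-08).

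Shares within a family were compared on the level per kilobase of exon, since counts of different genes depend on their length. HK2 made up 35.1%, 35.8% and 34.6% of the hexokinase level in PC3 cells under vehicle and 45.9%, 44.6% and 47.8% after pentamidine. The share was higher by 10.9 percentage points in PC3 and by 3.23 points in DU145 cells, where it went from 33.9% ± 1.03 to 37.2% ± 0.97. Neither pair of groups overlapped, and p = 0.1 in each, which is the smallest value an exact two-sided permutation test of 3 against 3 libraries can give. The same limit holds for all 44 share comparisons over 9 families, 26 of which did not overlap. The shares of a family add up to its whole, so these comparisons are not independent and the 26 count some changes more than once. In PC3 cells, for example, the share of HK1 was lower by the same 10.9 points by which that of HK2 was higher. The count of 26 was not set against a background.

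**Figure D2:**
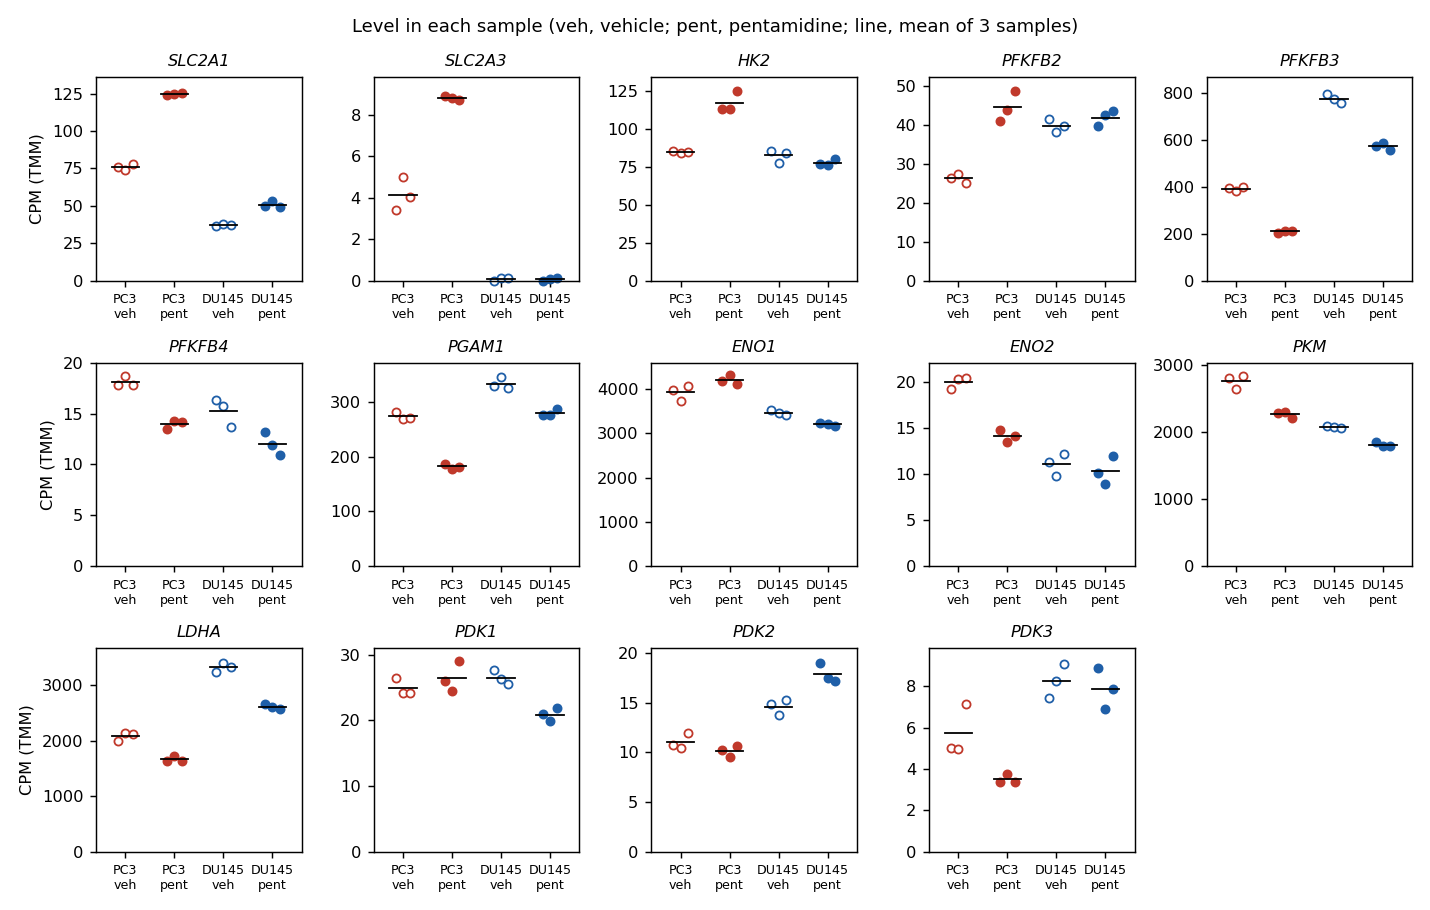
Level of the 14 members described sample by sample, in CPM scaled by TMM (vertical axes, from 0, each gene on its own scale), with 1 point per library, open for vehicle and filled for pentamidine, and a line at the mean of 3. SLC2A1 and PFKFB3 separate by treatment in both lines, in opposite directions, while HK2 and PFKFB2 separate in PC3 and overlap in DU145 cells.

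Upper glycolysis held more falls than rises in both lines. In PC3 cells 3 of 7 members fell and none rose, over a range of log2 fold changes from -0.26 to 0.15. In DU145 cells 3 of 6 tested members fell, with log2 fold changes of -0.08 to -0.09, and 1 rose. GPI, which isomerises glucose phosphate to fructose phosphate, fell by 0.26 on the log2 scale in PC3 cells (adjusted p = 0.000883). TPI1, the triose phosphate isomerase, fell by 0.21 there (adjusted p = 0.00127). PFKP, the platelet form of phosphofructokinase and the form with the highest level per kilobase in both lines, fell by 0.15 in PC3 (adjusted p = 0.0186) and had a log2 fold change of -0.03 ± 0.038 in DU145 cells. PFKL, the liver form, rose by 0.31 ± 0.044 in DU145 (1.24-fold, adjusted p = 1.13e-07) and had a log2 change of 0.10 ± 0.058 in PC3 cells (adjusted p = 0.174), and the difference between lines did not pass (-0.21 ± 0.077, adjusted p = 0.0596), except with library size alone (0.00937), with a replicate block (0.0498), or without vehicle replicate 2 of PC3 (0.0255), vehicle replicate 1 of DU145 (0.0251) or pentamidine replicate 3 of DU145 (0.0448). Its share of the phosphofructokinase level went from 21.6% ± 0.38 to 26.0% ± 0.81 in DU145 cells and from 10.7% ± 0.35 to 12.5% ± 0.43 in PC3 cells.

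The aldolases and the muscle phosphofructokinase complete the role. ALDOA, the main aldolase, had a log2 change of -0.03 ± 0.048 in PC3 and fell by 0.08 in DU145 cells (adjusted p = 0.0395). ALDOC, the brain form, stayed at or below 1.25 CPM in all 12 libraries. PFKM passed in neither line, although it passed in PC3 cells without vehicle replicate 2 (adjusted p = 0.0368), and its exons overlap 628 bases of SENP1 on the opposite strand, a gene with 107% as many counts, so without a stated strand its level is uncertain. The small falls of this role depended on single libraries. In PC3 cells PFKP lost its call without vehicle replicate 3 or pentamidine replicate 1 or 3 (adjusted p = 0.0646 to 0.0802). In DU145 cells GPI (adjusted p = 0.0495) lost it without vehicle replicate 2 or 3 or any 1 of the pentamidine libraries (0.0605 to 0.211), ALDOA without vehicle replicate 1 or 2 or pentamidine replicate 2 or 3 (0.0676 to 0.143), and TPI1 (adjusted p = 0.0185) without vehicle replicate 1 or 2 or pentamidine replicate 3 (0.054 to 0.106), and all 3 also lost it with library size alone.

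The PFKFB enzymes make and break the bisphosphate that activates phosphofructokinase, and so set the pace of glycolysis. They held the members with the largest fall and the second largest rise in PC3 cells. PFKFB3 (chr10:6144934-6254644, plus strand), the form whose kinase activity far exceeds its phosphatase activity, was at 394, 384 and 400.3 CPM in PC3 cells under vehicle and at 205, 213 and 212 CPM after pentamidine. In DU145 cells it was at 798, 775 and 759.9 CPM under vehicle and at 575, 586 and 559 CPM after pentamidine. The treated libraries were lower without overlap in each line. It fell 1.86-fold in PC3 (log2 fold change -0.90 ± 0.047, adjusted p = 9.50e-11) and 1.35-fold in DU145 (-0.43 ± 0.030, adjusted p = 1.82e-17), and the fall was larger in PC3 cells, with a difference of -0.46 ± 0.054 (adjusted p = 2.32e-07, interaction term). Under vehicle it was 2.01-fold lower in PC3 than in DU145 cells (adjusted p = 4.62e-12).

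PFKFB2 (chr1:207034366-207081024, plus strand), the form best known from heart, went the other way in PC3 cells, from 26.4, 27.3 and 25.1 CPM under vehicle to 41.1, 43.9 and 48.7 CPM after pentamidine. In DU145 cells the levels were 41.6, 38.2 and 39.9 CPM under vehicle and 39.8, 42.5 and 43.6 CPM after pentamidine. The libraries of PC3 did not overlap and those of DU145 did. The rise was 1.70-fold in PC3 cells (log2 0.77 ± 0.079, adjusted p = 6.10e-07), against a log2 fold change of 0.08 ± 0.063 in DU145 (adjusted p = 0.351) and a difference between lines of 0.69 ± 0.10 (adjusted p = 9.24e-06, interaction term). PFKFB2 shares 315 exon bases with YOD1 on the opposite strand, a gene with 39.6% as many counts, so part of its level is uncertain. HK2, PDK1, PDHA1 and SLC16A1 share exon bases with genes on the opposite strand that hold 4.76% to 10.2% as many counts.

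PFKFB4 (chr3:48517684-48562015, minus strand), a form with both activities, fell in both lines. It was at 17.8, 18.7 and 17.8 CPM under vehicle and at 13.4, 14.2 and 14.2 CPM after pentamidine in PC3 cells, and at 16.3, 15.7 and 13.7 and then 13.2, 11.9 and 10.9 CPM in DU145 cells. Neither pair of groups overlapped. The log2 fold change was -0.37 ± 0.096 in PC3 (adjusted p = 0.00500) and -0.34 ± 0.11 in DU145 (adjusted p = 0.0103), where the call was lost without vehicle replicate 1 or pentamidine replicate 3 (adjusted p = 0.0521 and 0.0623). The responses differed by -0.03 ± 0.14 (adjusted p = 0.935, interaction term). TIGAR, a phosphatase of the same bisphosphate, had log2 fold changes of 0.06 ± 0.071 and -0.05 ± 0.064 and passed in neither line. Within the family, PFKFB3 made up 92.1% ± 0.40 of the level per kilobase in PC3 cells under vehicle and 83.8% ± 0.67 after pentamidine, while the share of PFKFB2 went from 3.70% ± 0.22 to 10.6% ± 0.67. In DU145 cells PFKFB3 went from 95.2% ± 0.11 to 93.9% ± 0.11.

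Sequence before the start of the gene is shown for 3 members that stand for the patterns seen: PFKFB3 and LDHA, lower in both lines, and PDK1, whose response differed between lines. The windows come from RefSeq (GRCh38.p14, all on the plus strand, 5′ to 3′) and stop before the first annotated exon of GENCODE release 29. For each gene the most upstream RefSeq start was taken, which need not be the start in use in these cells. For LDHA the stop left 75 bases, while its 250 bases before the start held 5 matches to ACGTG and 2 to CACGTG. Each CACGTG counts as 2 of the matches to ACGTG, 1 on each strand, so the 5 are not separate places. They are chr10:6144671-6144920 for PFKFB3, chr11:18394313-18394387 for LDHA and chr2:172555123-172555372 for PDK1. Capitals mark ACGTG or GCGTG, the core that hypoxia-inducible factors recognise, CACGTG, the E-box of MYC and its relatives, which contains ACGTG, and TGATGNAA, the core of the amino acid response element bound by ATF4, each searched on both strands.
PFKFB3: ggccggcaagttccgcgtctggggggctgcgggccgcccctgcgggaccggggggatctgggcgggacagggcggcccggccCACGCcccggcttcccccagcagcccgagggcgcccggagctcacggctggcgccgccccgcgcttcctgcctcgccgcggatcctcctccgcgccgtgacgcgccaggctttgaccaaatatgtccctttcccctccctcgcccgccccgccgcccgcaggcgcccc
LDHA: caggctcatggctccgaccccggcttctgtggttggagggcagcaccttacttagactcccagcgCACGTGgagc
PDK1: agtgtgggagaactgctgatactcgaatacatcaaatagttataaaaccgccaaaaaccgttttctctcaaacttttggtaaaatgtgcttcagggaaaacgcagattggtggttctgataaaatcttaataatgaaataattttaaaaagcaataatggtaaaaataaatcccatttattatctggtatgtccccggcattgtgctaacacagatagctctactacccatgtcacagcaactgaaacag
The windows differed in base composition, with a GC content of 79.2% for PFKFB3, 64.0% for LDHA and 35.6% for PDK1. Over full windows of 300 bases, from 250 before to 50 after the RefSeq start, ACGTG was found in 12 of the 28 members with an entry (42.9%) and in 21.6% of 27305 promoters, GCGTG in 14 members (50%) and in 36.4% of promoters, CACGTG in 4 members (14.3%) and in 7.4%, and TGATGNAA in 1 member, HK1, and in 3.67%. SLC2A3, PFKFB2 and SLC16A1 had no entry. These counts, too, rest on the most upstream start of each gene. A match says only that these letters are present in the window.

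In lower glycolysis 1 of 6 members was higher and 3 were lower in PC3 cells, and none was higher and 4 were lower in DU145 cells. GAPDH, ENO1 and PKM belong to the most strongly expressed genes of the pathway, and GAPDH and ENO1 ranked first and second of the members by level per kilobase in all 4 groups. PGAM1 (chr10:97426160-97433441, plus strand), the phosphoglycerate mutase, showed the largest fall of the role. It was at 282, 268 and 269 CPM under vehicle and at 186, 178 and 182 CPM after pentamidine in PC3 cells, and at 328, 345 and 326 and then 277, 275 and 287 CPM in DU145 cells. Neither pair of groups overlapped. It fell 1.5-fold in PC3 (log2 fold change -0.58 ± 0.048, adjusted p = 3.57e-08) and 1.19-fold in DU145 (-0.25 ± 0.034, adjusted p = 3.04e-08), with a difference of -0.33 ± 0.058 (adjusted p = 8.20e-05, interaction term).

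ENO1 (chr1:8861002-8879249, minus strand), the main enolase, was at 3982, 3735 and 4063 CPM in PC3 cells under vehicle and at 4171, 4319.5 and 4120.2 CPM after pentamidine. In DU145 cells it was at 3532, 3466 and 3408 CPM under vehicle and at 3232, 3222 and 3171 CPM after pentamidine. The treated libraries were above the vehicle libraries in PC3 and below them in DU145 cells. It fell by 0.11 on the log2 scale in DU145 cells (adjusted p = 0.00111), had a log2 change of 0.10 ± 0.046 in PC3 cells (adjusted p = 0.0781, and 0.0321 without vehicle replicate 3), and its response differed between lines by 0.21 ± 0.049 (adjusted p = 0.00245, interaction term, but 0.141 with limma on log2(CPM + 1) and 0.118 on log2(CPM + 0.1)). With library size alone the fall in DU145 cells was 0.06 and did not pass (adjusted p = 0.0810).

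ENO2 (chr12:6913745-6923698, plus strand), the neuronal enolase, went from 19.2, 20.3 and 20.4 CPM to 14.8, 13.4 and 14.1 CPM in PC3 cells, and from 11.3, 9.81 and 12.2 to 10.2, 8.90 and 11.9 CPM in DU145 cells. The libraries of PC3 did not overlap and those of DU145 did. The log2 fold change was -0.49 ± 0.095 in PC3 (adjusted p = 0.000458) and -0.10 ± 0.12 in DU145 (adjusted p = 0.568), and the difference between lines did not pass (-0.39 ± 0.16, adjusted p = 0.0771, but 0.0347 with library size alone and 0.0351 without pentamidine replicate 2 of DU145). ENO1 kept over 99% of the enolase level per kilobase in every group, at 99.4% ± 0.038 and 99.6% ± 0.027 in PC3 cells.

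PKM (chr15:72199029-72231822, minus strand), the pyruvate kinase of most tissues and tumours, fell in both lines. Its level was 2799, 2637 and 2832 CPM under vehicle and 2273, 2298 and 2211 CPM after pentamidine in PC3 cells. In DU145 cells it was 2093, 2068 and 2059 and then 1850.0, 1794 and 1782 CPM. Every treated library was below every vehicle library of its line. The falls were 1.21-fold (log2 fold change -0.28 ± 0.045, adjusted p = 7.77e-05) and 1.14-fold (-0.19 ± 0.027, adjusted p = 1.14e-07), and they were not shown to differ (-0.09 ± 0.049, adjusted p = 0.225), although the difference passed with library size alone (-0.16, adjusted p = 0.0135). GAPDH, the glyceraldehyde phosphate dehydrogenase, rose by 0.20 ± 0.049 in PC3 (adjusted p = 0.00295, but 0.0565 with limma on log2(CPM + 1)) and had a log2 fold change of 0.03 ± 0.030 in DU145 cells, which became a call with library size alone (0.08, adjusted p = 0.0304). PGK1, the phosphoglycerate kinase, fell by 0.21 in DU145 (adjusted p = 2.19e-07) and had a log2 change of -0.12 ± 0.052 in PC3 cells (adjusted p = 0.0667), which passed without vehicle replicate 1 (adjusted p = 0.00613).

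Lactate genes held no higher call in either line. LDHA (chr11:18394388-18408425, plus strand) encodes the subunit of lactate dehydrogenase that favours the step from pyruvate to lactate. It was at 2004, 2142 and 2128 CPM under vehicle and at 1638, 1729 and 1637 CPM after pentamidine in PC3 cells, and at 3246, 3405 and 3338 and then 2662, 2614 and 2577 CPM in DU145 cells. The groups did not overlap in either line. It fell 1.25-fold in PC3 (log2 fold change -0.32 ± 0.048, adjusted p = 3.60e-05) and 1.27-fold in DU145 (-0.34 ± 0.027, adjusted p = 3.11e-15), and the difference of the responses was 0.02 ± 0.051 (adjusted p = 0.836). Its vehicle level was 1.62-fold lower in PC3 than in DU145 cells (adjusted p = 5.40e-10).

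LDHB, the subunit that favours the reverse step, had a log2 change of -0.03 ± 0.055 in PC3 (adjusted p = 0.733) and fell by 0.13 in DU145 (adjusted p = 0.000323). The share of LDHA in the level per kilobase of both subunits went from 45.6%, 47.8% and 45.2% to 41.8%, 40.3% and 41.4% in PC3 cells, and from 62.1%, 63.2% and 62.8% to 59.4%, 59.0% and 59.1% in DU145 cells. It was lower in all 3 treated libraries of each line, by 5.02 and 3.53 percentage points, with p = 0.1 in each exact permutation test. SLC16A1, the widespread monocarboxylate transporter that moves lactate in both directions, fell by 0.15 in PC3 (adjusted p = 0.0267) and by 0.25 in DU145 (adjusted p = 4.53e-06). The call in PC3 cells was lost without vehicle replicate 2 or any 1 of the pentamidine libraries (adjusted p = 0.0526 to 0.0999). SLC16A3, the transporter suited to lactate export, had log2 fold changes of -0.10 ± 0.058 and -0.10 ± 0.078 and passed in neither line, although it passed in PC3 cells without vehicle replicate 1 (adjusted p = 0.00947). Its exons share 482 bases with CSNK1D on the opposite strand, so its level is uncertain. CSNK1D held 93.7% as many counts over all 12 libraries together.

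**Figure D3:**
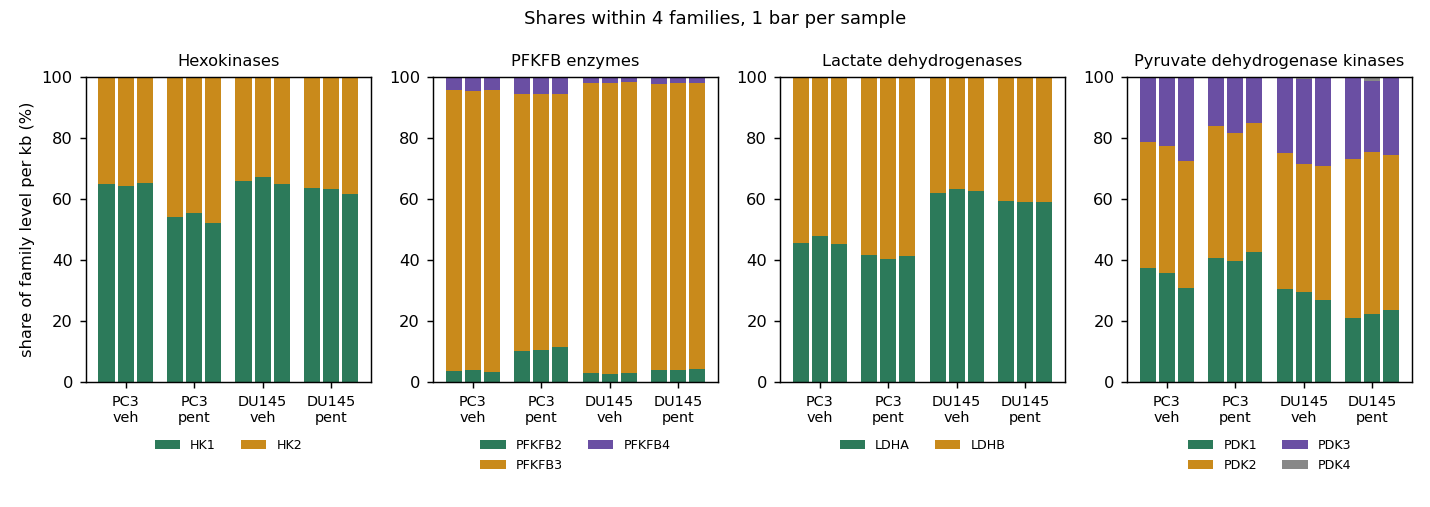
Share of each gene in the summed level per kilobase of its family (vertical axis, percent, 1 stacked bar per library, 3 per group) for hexokinases, PFKFB enzymes, lactate dehydrogenases and pyruvate dehydrogenase kinases. The HK2 share is 44.6% or more in the treated PC3 libraries and 38.3% or less in all others, and the PDK1 share is higher after treatment in PC3 and lower in DU145 cells.

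Pyruvate dehydrogenase and its kinases are given last. PDHA1 and PDHB encode the subunits of the first enzyme of the complex. PDHA1 had log2 fold changes of -0.12 ± 0.061 in PC3 and -0.03 ± 0.043 in DU145 cells, and passed in neither, although it passed in PC3 cells without vehicle replicate 1 (adjusted p = 0.0449). PDHB had a log2 change of -0.0040 ± 0.084 in PC3 and fell by 0.14 in DU145 cells (adjusted p = 0.0232), a call lost without vehicle replicate 2 or 3 or pentamidine replicate 2 (adjusted p = 0.0638 to 0.156).

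PDK1 (chr2:172555373-172608669, plus strand), the kinase known as a target of hypoxia-inducible factors, was at 26.4, 24.1 and 24.2 CPM in PC3 cells under vehicle and at 25.9, 24.6 and 29.05 CPM after pentamidine. In DU145 cells it was at 27.6, 26.3 and 25.5 CPM under vehicle and at 21.0, 19.8 and 21.9 CPM after pentamidine. The groups overlapped in PC3 and did not in DU145 cells. It fell 1.26-fold in DU145 cells (log2 fold change -0.34 ± 0.080, adjusted p = 0.000786), had a log2 change of 0.10 ± 0.085 in PC3 cells (adjusted p = 0.386), and differed between lines by 0.43 ± 0.11 (adjusted p = 0.00744, interaction term).

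PDK2 (chr17:50094737-50112152, plus strand), the kinase of widest expression, was at 10.7, 10.4 and 11.9 CPM and then 10.2, 9.54 and 10.6 CPM in PC3 cells, and at 14.8, 13.7 and 15.2 and then 19.0, 17.5 and 17.2 CPM in DU145 cells. The groups overlapped in PC3 cells, and the treated libraries of DU145 lay above the vehicle libraries. It rose 1.23-fold in DU145 cells (log2 fold change 0.30 ± 0.096, adjusted p = 0.0125), where the call was lost without vehicle replicate 2 or pentamidine replicate 1 (adjusted p = 0.0655 and 0.0717), and had a log2 change of -0.12 ± 0.12 in PC3 cells (adjusted p = 0.449). The difference between lines was -0.42 ± 0.14 (adjusted p = 0.0400, interaction term), and it did not pass with DESeq2 (adjusted p = 0.0892).

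PDK3 (chrX:24465221-24539837, plus strand) was the least counted kinase that could be tested, at 5.02, 4.99 and 7.15 CPM under vehicle and 3.38, 3.77 and 3.38 CPM after pentamidine in PC3 cells, and at 7.46, 8.27 and 9.09 and then 8.87, 6.93 and 7.86 CPM in DU145 cells. The groups overlapped in DU145 cells and did not in PC3 cells. It fell 1.62-fold in PC3 cells (log2 fold change -0.69 ± 0.19, adjusted p = 0.00710), with a log2 fold change of -0.07 ± 0.14 in DU145 (adjusted p = 0.739) and a difference between lines that did not pass (-0.62 ± 0.23, adjusted p = 0.0564), except with library size alone (0.0298), with limma on log2(CPM + 1) (0.0446) or log2(CPM + 0.1) (0.0490), or without vehicle replicate 1 (0.0275) or 2 (0.0399) of PC3 or pentamidine replicate 2 of DU145 (0.0432). PDK4, the kinase known to rise in fasting, held 0 to 5 counts in each library and was tested in neither line. As a share of the kinase level per kilobase, PDK1 went from 34.7% ± 3.32 to 41.0% ± 1.53 in PC3 and from 29.1% ± 1.80 to 22.4% ± 1.34 in DU145 cells, and PDK2 went from 43.5% ± 1.38 to 52.0% ± 1.32 in DU145 cells.

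The response of 10 of 30 members differed between the lines by the interaction term, against 20.4% of all genes, 6 with a larger log2 fold change in PC3 cells (SLC2A1, HK2, PFKFB2, GAPDH, ENO1 and PDK1) and 4 with a smaller one (GPI, PFKFB3, PGAM1 and PDK2). Of all 15226 genes tested, 10.2% were larger and 10.3% smaller in PC3 cells, beside 20% and 13.3% of the members, the second of which is near the background. With library size alone, 5 members were larger and 10 smaller (PFKL, PFKP, TPI1, ENO2, PKM and PDK3 in addition), and of all genes 1128 were larger and 2265 smaller in place of 1546 and 1566. The smaller count was 7 without vehicle replicate 2 of PC3. It was 2 without vehicle replicate 3 or pentamidine replicate 1 of PC3, and without vehicle replicate 2 or 3 or pentamidine replicate 1 of DU145. The calls of SLC2A1, HK2, PFKFB2, PFKFB3, PGAM1, ENO1 and PDK1 held on leaving out any single library, and that of ENO1 was lost with limma. That of GPI held only without vehicle replicate 1 or 2 or pentamidine replicate 2 of PC3 (adjusted p up to 0.156 without any other library). That of GAPDH was lost without vehicle replicate 2 or pentamidine replicate 2 or 3 of PC3, or vehicle replicate 1 or pentamidine replicate 3 of DU145 (0.0912 to 0.155), with library size alone (0.199), and with limma on log2(CPM + 1) (0.406). That of PDK2 held only without vehicle replicate 1 or 2 or pentamidine replicate 3 of PC3 or pentamidine replicate 3 of DU145 (0.0531 to 0.109 otherwise). Over all 23 fits, other scalings, filters and tools included, the call of GPI held in 8, that of GAPDH in 15 and that of PDK2 in 12. TPI1, with a difference of -0.13, passed without vehicle replicate 2 of PC3 (0.0397).

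The members were also compared between the lines before treatment. This comparison uses the vehicle libraries of the comparisons above. Of 30 members, 13 were higher (43.3%) and 10 lower (33.3%) in vehicle-treated PC3 than in vehicle-treated DU145 cells. Over 14394 genes the shares were 31.5% and 33.8%, so the lower share was near the background. Past a log2 fold change of 1 were 4 members (SLC2A3, PFKP, PFKFB3 and SLC16A3), against 19.2% of all genes. SLC2A3, which is in both counts, held 0 to 2 counts in each vehicle library of DU145. It passed the filter only through the PC3 libraries, where it is higher. PFKFB3 (log2 difference -1.01) and SLC2A1 (0.9995) lay at the fold threshold. Over all fits PFKFB3 ranged from -1.03 to -0.928 and SLC2A1 from 0.986 to 1.08, so whether each passed depended on the fit. Groups did not overlap for 24 members, against 69.1% of all genes. SLC16A3, singled out after its values were seen, showed the widest gap among members counted well above 0 in both lines, with 292, 315 and 338 CPM in PC3 and 32.9, 30.4 and 25.8 CPM in DU145 cells, a 10.4-fold difference (log2 3.38 ± 0.079, adjusted p = 2.00e-15). It made up 47.0% ± 2.19 of the level per kilobase of the 2 lactate transporters in PC3 and 10.4% ± 1.5 in DU145 cells. Because its exons overlap those of CSNK1D on the opposite strand, the size of this gap and these shares are uncertain. PFKP was 2.05-fold higher in PC3 cells (log2 1.04 ± 0.052, adjusted p = 3.72e-11). The PFKFB role and pyruvate dehydrogenase with its kinases held no higher call. Of the latter, 4 of 5 tested members were lower in PC3 cells, with PDHB 1.84-fold lower (log2 difference -0.88 ± 0.077, adjusted p = 4.04e-08).

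By level per kilobase, the order at the top was similar in the 4 groups. GAPDH stood at 999, 1145, 910 and 926 CPM per kilobase in vehicle- and pentamidine-treated PC3 and vehicle- and pentamidine-treated DU145 cells, followed by ENO1 at 744, 797, 657 and 608. LDHA stood at place 3 in both DU145 groups, at 536 ± 12.8 under vehicle, and at place 6 in both PC3 groups, at 337 ± 12.3 under vehicle. PDK4, ALDOC, SLC2A3, PDK3 and PDK1 filled the lowest places in PC3 cells. Lengths were summed over all annotated exons, so a gene transcribed in shorter forms is understated.

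The other genes of the neighbouring pathways were read from 8 lists. Of 32 other genes of glycolysis and of glucose and lactate transport, 14 could be tested in PC3 cells, with 3 higher and 5 lower, and 16 in DU145 cells, with 2 higher and 3 lower. The medians were -0.06 and -0.09 on the log2 scale. For these and the lists that follow, the shares over all genes are 21.7% higher and 21.7% lower in PC3 and 17.2% and 16.8% in DU145 cells. BSG, the chaperone that carries the lactate transporters to the membrane, rose in both lines, by 0.20 ± 0.052 and 0.21 ± 0.032. SLC2A6, a transporter of lysosomes, rose by 0.24 ± 0.065 in PC3 and fell by 0.43 in DU145 cells. HKDC1, a further hexokinase chosen after its values were seen, was the only gene of the list past a log2 change of 1 in PC3 cells. It went from 0.639 ± 0.15 to 7.39 ± 0.24 CPM there (log2 fold change 3.52 ± 0.23, adjusted p = 2.14e-09), against 2.92 ± 0.59 and 3.13 ± 0.17 CPM in DU145 cells (adjusted p = 0.774). The lowest vehicle level of HKDC1 in PC3 cells, 0.475 CPM, lay below the minimum count of the filter for tested genes. HKDC1 therefore passed the filter in PC3 cells through the pentamidine libraries, where it is higher. In DU145 cells the only gene of the list past a log2 change of 1 was SLC16A7, a further monocarboxylate transporter. It was at 1.19 to 1.75 CPM under vehicle and 0.429 to 0.747 CPM after pentamidine (log2 fold change -1.17 ± 0.38, adjusted p = 0.0133). Its lowest treated level lay below the same minimum count, so SLC16A7 passed the filter there through the vehicle libraries. It fell by 0.40 in PC3 cells (adjusted p = 0.0145), and the difference between lines did not pass (adjusted p = 0.135).

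Of 9 other genes of pyruvate entry tested, 1 was higher and 5 were lower in PC3 cells (median -0.18), and 1 was higher and 3 were lower in DU145 cells (median -0.0073). DLAT, the second enzyme of the pyruvate dehydrogenase complex, fell by 0.26 in PC3 (adjusted p = 0.000417) and by 0.15 in DU145 (adjusted p = 0.00230). PDP2, a phosphatase that switches the complex on, fell by 0.18 and 0.32. MPC1 and MPC2 form the carrier that brings pyruvate into the mitochondrion. MPC2 fell by 0.24 in PC3 cells (adjusted p = 0.0360), with 0.01 ± 0.065 in DU145 cells, and MPC1 passed in neither line, at 0.13 ± 0.12 and 0.39 ± 0.19.

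In other branches of glucose use, PCK2 changed by more than any member tested after pentamidine. PCK2, the mitochondrial enzyme that makes phosphoenolpyruvate, went from 29.3 ± 2.30 to 237 ± 3.11 CPM in PC3 (log2 fold change 3.02 ± 0.062, adjusted p = 1.68e-16) and from 21.3 ± 2.04 to 88.6 ± 4.10 CPM in DU145 (2.06 ± 0.063, adjusted p = 3.96e-33). It was the only gene higher among the 3 of the gluconeogenesis list tested in each line, whose medians were 0.12 and 0.00066. Of the pentose phosphate list, 3 genes were higher and 3 lower in each line, with medians of 0.0094 in PC3 and 0.025 in DU145 cells. H6PD, which starts that route in the endoplasmic reticulum, rose by 1.58 ± 0.13 in PC3 and by 0.72 ± 0.077 in DU145 cells. In the glycogen list, with 3 higher and 4 lower of 17 tested in each line and medians of -0.040 and 0.070, the phosphorylase PYGB rose by 1.04 ± 0.045 and 0.39 ± 0.035, and the synthase GYS1 fell by 0.30 and 0.24.

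Factors that act on glycolysis genes and hypoxia-inducible genes outside the pathway were read in the same way. Of 20 tested factors and sensors, 9 were higher and 2 lower in PC3 and 6 were higher and 6 lower in DU145 cells, with medians of 0.12 and 0.00095, beside 21.7% of all genes in each direction in PC3 and 17.2% and 16.8% in DU145 cells. HIF1A, the oxygen-regulated subunit, had a log2 change of -0.06 ± 0.051 in PC3 (adjusted p = 0.328) and fell by 0.14 in DU145 (adjusted p = 0.000957), while its relative EPAS1 rose by 2.66 ± 0.10 and 2.03 ± 0.060. MYC passed in neither line, at 0.10 ± 0.050 and -0.07 ± 0.033. ATF4, the factor of the amino acid response, rose by 1.13 ± 0.053 and 0.97 ± 0.032. TXNIP, which restrains glucose uptake, went from 0.901 ± 0.24 to 8.17 ± 0.71 CPM in PC3 cells (log2 fold change 3.19 ± 0.22, adjusted p = 3.62e-09) and stayed at or below 0.0715 CPM in the libraries of DU145, where it was not tested.

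Of 16 tested hypoxia-inducible genes outside glycolysis, 7 were higher and 3 lower in PC3 and 7 higher and 5 lower in DU145 cells, with medians of 0.11 and 0.079. VEGFA, the growth factor of blood vessels, rose by 1.53 ± 0.054 and 1.14 ± 0.055, and STC2, a secreted glycoprotein, by 3.20 ± 0.056 and 1.60 ± 0.052. Some members known as targets of hypoxia-inducible factors went both ways: SLC2A1 rose in both lines and HK2 in PC3 cells, while LDHA, PFKFB3 and PFKFB4 fell in both. PDK1, also named above as such a target, fell in DU145 cells and did not pass in PC3 cells. These are examples, and such targets were not counted over all members. All 13 mRNAs encoded by mitochondrial DNA fell in both lines, with median log2 fold changes of -4.12 in PC3 and -4.84 in DU145 cells. The part of these changes in the levels of the members was not tested.

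**Figure D4:**
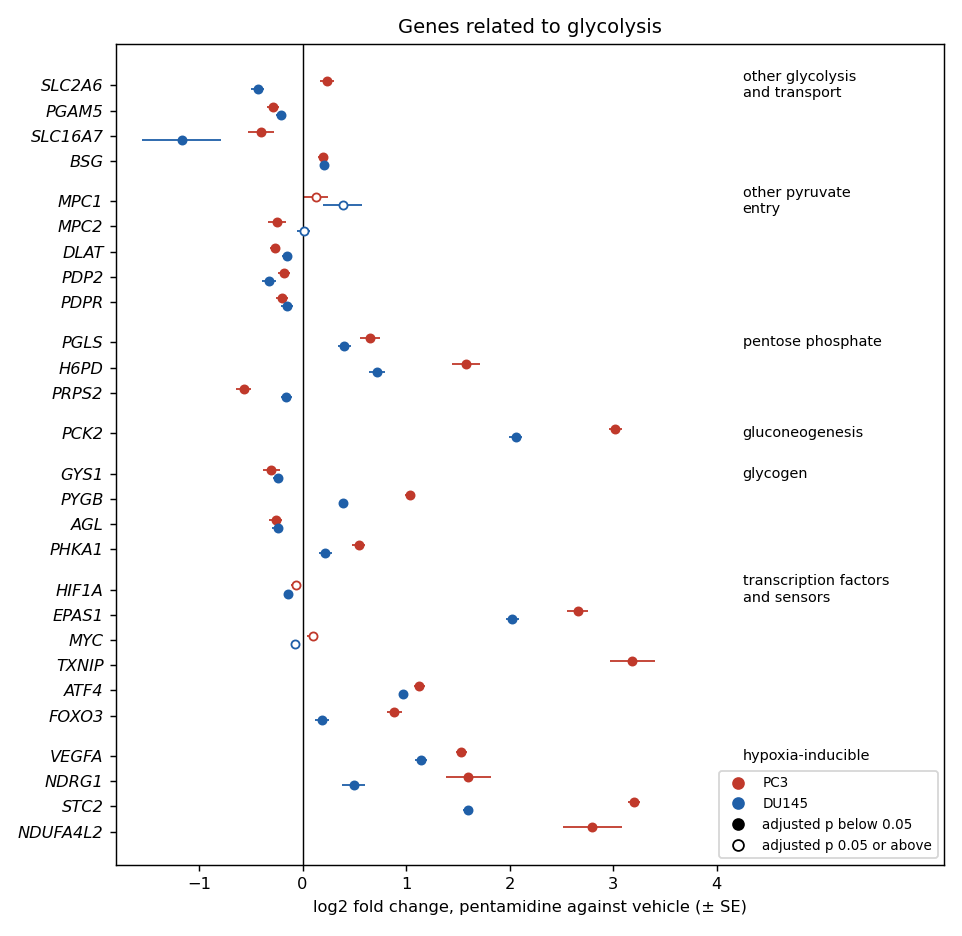
Log2 fold change after pentamidine (horizontal axis, ± SE of the edgeR fit) of genes from 7 lists of neighbouring pathways and regulators in PC3 (red) and DU145 cells (blue), with filled points for an adjusted p below 0.05. PCK2, EPAS1, VEGFA and STC2 stand above a log2 fold change of 1 in both lines, while HIF1A and MYC lie close to 0.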

How the data were processed

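Oligo(dT)-enriched RNA of the 12 libraries was sequenced as paired ends. The authors aligned reads to GRCh38 (HISAT2 2.1.0 and DESeq 1.18.1 stand in the submitters' processing notes, while the counting program and its strand setting are not given in the sources used here) and deposited raw counts per gene. They also deposited a table named for FPKM whose values are CPM: 100% of 384876 deposited values equalled the count scaled to its library total within 1 part in 100000. Columns of the authors' own comparisons (fold changes and p-values) were not used.

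Of 33639 lines, 44 were broken and left out, and 32077 genes remained. Groups came from the labels. Counts were tested with edgeR 4.0.16 (R 4.3.3) by the quasi-likelihood test, with TMM scaling, filterByExpr (minimum count 10), and p-values adjusted by Benjamini-Hochberg over all genes tested, per line, for the interaction over all 12 libraries, and for the vehicle libraries. A call is an adjusted p below 0.05. Levels are CPM scaled by TMM, and levels per kilobase use exon lengths of GENCODE release 29. Shares were compared with exact two-sided permutation tests (scipy 1.17.1), and figures were drawn with matplotlib 3.10.9. The model was tested on simulated data with known log2 changes of 0.5 and 1. At 0.5 it recovered 65.6% of changed genes in PC3 and 78.6% in DU145 cells. It recovered 58.8% for the interaction and 61.0% between lines under vehicle. At 1 it recovered 77.3% to 89.7%, and false calls numbered 5 to 11. Smaller changes were not simulated.

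The members and lists were chosen with earlier results of these data known. The members described sample by sample were at most 14: those past a log2 fold change of 1 in a line, those whose response differed between lines with opposite signs, and then those with the largest mean absolute log2 fold change. Of each list at most 4 genes called in both lines were named by the same measure, plus HIF1A, MYC, TXNIP, BSG, MPC1 and MPC2. Alternatives were DESeq2 1.42.0, limma 3.58.1, other scalings and filters, pseudogene counts added, a replicate block, a joint fit and leaving out each library. Some genes of the lists are not reported here. Depth was 13514195 to 15131436 counts per library. Pairs of libraries of a group differed by more than sampling noise, with a mean chi-square of 1.72 to 7.30 per gene. The spread was widest in vehicle-treated PC3 cells, at 3.64 to 7.30, against 1.72 to 3.13 in the other groups.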

Additional observations from a re-analysis of the deposited data

Results flagged for a closer look

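The pentamidine response of 10 members differed between the lines by the interaction term of the fit over all 12 libraries, and these are given as PC3 response minus DU145 response on the log2 scale. The difference was 0.27 for SLC2A1 (adjusted p = 0.00859), 0.55 for HK2 (2.47e-06), 0.69 for PFKFB2 (9.24e-06), 0.17 for GAPDH (0.0423), 0.21 for ENO1 (0.00245) and 0.43 for PDK1 (0.00744), all edgeR quasi-likelihood tests. It was -0.18 for GPI (adjusted p = 0.0424), -0.46 for PFKFB3 (2.32e-07), -0.33 for PGAM1 (8.20e-05) and -0.42 for PDK2 (0.0400). HK2, ENO1, PDK1 and PDK2 had fitted log2 fold changes of opposite sign in the 2 lines, and none of these 4 was called in both. Groups of 3 libraries are too small for the check of single outlying libraries.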

How the results depend on the processing

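Of the main values, 436 alternatives kept their size or side and 29 did not; of the members' fold changes, 2064 kept direction and side, 115 were no longer called, 33 became called and 56 changed sign. None of the fold changes that changed sign was called in the fit reported, and the cause was not tested. Counts were the most sensitive. In PC3 cells, members past a log2 fold change of 1 numbered 0 with limma on log2(CPM + 1) in place of 1, and 0 to 1 on leaving out a library. Members lower in DU145 cells numbered 6 with limma on log2(CPM + 1) and 7 on log2(CPM + 0.1), in place of 15. All genes past that fold numbered 431 with at least 10 counts in every sample and 331 with limma on log2(CPM + 1) in PC3 cells (658 as reported), 193 with DESeq2, 154 with at least 10 counts and 109 with limma on log2(CPM + 1) in DU145 cells (290), and 1432 with at least 10 counts between lines under vehicle (2768). All genes called in DU145 cells numbered 2999 with limma on log2(CPM + 0.1) (4860). For the difference between lines, 2 members were lower at an adjusted p below 0.01, with DESeq2 or with no filter, 10 with library size alone and 2 to 7 on leaving out a library (4 as reported), and 1996 genes passed at 0.01 (3112).

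With plain counts in place of counts per kilobase, the share of PFKL moved by 2.61 points in PC3 and 5.48 in DU145 cells, PFKFB3 by -11.6 and -1.98, ENO1 by 0.172 in PC3, and in DU145 cells LDHA by -2.67 and PDK1 by -8.91. Changes of sign with library size alone, limma on log2(CPM + 1) and limma on log2(CPM + 0.1) were, in DU145 cells, PFKP 0.0165, 0.0167 and 0.0168, TIGAR 0.00094, 0.0016 and 0.0016, and PDHA1 0.0167, 0.0140 and 0.0141; for the difference between lines, ALDOA -0.0272, -0.0264 and -0.0264, LDHA -0.0473, -0.0468 and -0.0469, and SLC16A3 -0.0674, -0.0711 and -0.0701; under vehicle, HK1 0.0197, 0.0199 and 0.0200, and PGK1 0.0485, 0.0477 and 0.0478. With at least 10 counts in every sample, PDHB was 0.00082 in PC3 cells and SLC16A3 -0.00018 for the difference. Leaving out a library gave these ranges. In PC3 cells they were -0.070 to 0.0060 for ALDOA, -0.20 to 0.58 for ALDOC, -0.082 to 0.018 for LDHB and -0.094 to 0.074 for PDHB. In DU145 cells they were -0.067 to 0.0024 for PFKP, -0.071 to 0.013 for PDHA1 and -0.16 to 0.011 for PDK3. For the difference they were -0.15 to 0.053 for PFKM, -0.063 to 1.08 for ALDOC, -0.089 to 0.053 for PFKFB4, -0.0046 to 0.047 for LDHA and -0.069 to 0.10 for SLC16A3. Under vehicle they were -0.025 to 0.041 for HK2, -0.16 to 0.98 for ALDOC and -0.059 to 0.018 for PGK1.

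The labels do not say whether same-numbered libraries were paired. Deviations of same-numbered libraries correlated at -0.073 to 0.026 in PC3 and -0.013 to 0.0014 in DU145 cells. Those of other-numbered libraries correlated at -0.081 to 0.085 and -0.011 to 0.017. This gave no sign of pairing, but groups of 3 libraries cannot settle it. With a replicate block, 5 members were higher and 12 lower in PC3 cells and 3 and 14 in DU145 cells, 6 and 3 differed between lines, 13 and 10 differed under vehicle, and 2818 and 2781 of all genes were called in PC3 and 2434 and 2360 in DU145 cells. PDK4 and, in DU145 cells, ALDOC and SLC2A3 were counted too rarely to be tested. For ALDOC the PC3 value was 0.15 ± 0.42 on the log2 scale (adjusted p = 0.795).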

Other observations

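Outside the comparisons, 10 members have pseudogenes in the table, 50 entries in all, whose near-identical sequence could take reads from the parent gene. They held 4.53% as many counts as the parent for SLC2A3, 1.34% for TPI1 and at most 0.291% for the others. With these counts added, 5 members were higher and 12 lower in PC3 and 3 and 15 in DU145 cells, as reported. For the difference between lines, 7 were larger and 3 smaller, in place of 6 and 4. NDUFA4L2, a hypoxia-inducible mitochondrial protein gene, held at most 2 counts per library in vehicle-treated DU145 cells and 1.16 ± 0.39 CPM after pentamidine, at least 5.18-fold higher against a limit of 3 counts per library.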
